A study of Mus musculus with 8 samples.

Results

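Livers that carried human A20 from an adenovirus (rAd.A20) were compared 24 h after and before an extended 78% liver resection, over all probe sets of a mouse Affymetrix array. The pre-A20 arrays (n = 2) held RNA of the lobes removed at resection, and the post-A20 arrays (n = 2) held RNA of the remnant 24 h later, so 4 of the 8 arrays of the series belong to this comparison. RNA of 3 mice, all BALB/c and 8 weeks old, was pooled for each array. Every mouse had received 1e+09 pfu of vector in 100 µL into the penile vein 5 days before the resection, which the study's methods give as the time of best expression, in 30 to 40% of hepatocytes. The other 4 arrays, pre-βgal (n = 2) and post-βgal (n = 2), held livers with a control adenovirus for β-galactosidase (rAd.βgal), treated and resected in the same way, so both arms carried an adenovirus, no arm was free of vector, and most hepatocytes of an A20 liver did not carry the transgene. No replicate number says which pools before and after resection shared mice, and nothing says that pools were made from separate experiments, so p-values measure the spread between these arrays of pooled RNA. The treatment text of both post-A20 records repeats the βgal wording, but A20 is what their title, description and source name give, and they were read as post-A20.

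After part of the liver is removed, the remaining hepatocytes leave quiescence, divide and restore the organ's mass while they go on making plasma proteins, bile and glucose. Cytokines released after the operation, interleukin 6 among them, switch on acute phase genes through STAT3 and C/EBP factors, and growth factors carry the cells into the cycle. Fat from adipose tissue is taken up and stored in droplets during the same days. A20, encoded by Tnfaip3 in the mouse, is an inhibitor of NF-κB signalling that NF-κB itself induces.

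Values are deposited normalized intensities in linear units, and changes are log2 fold changes, post-A20 minus pre-A20, of intensity plus 16, given ± their standard error with the adjusted p of limma's test over 17790 genes. A gene is called where that adjusted p is under 0.05, and the array number, 2 per group, limits the precision of each value. In bulk RNA, fewer cells of a type and less RNA per cell cannot be told apart. Array medians ran from 152.6 to 165.8. The 3′ to 5′ signal ratio of the β-actin control probe sets, a sign of RNA integrity, was 1.31 to 1.62 in the 4 A20 arrays, while replicate 1 of pre-βgal had 7.0 and replicate 1 of post-βgal had 3.64. Pyruvate carboxylase, another such control, had ratios of 3.42 to 4.32 in 3 of the A20 arrays and 6.23 in post-A20 replicate 1. The pair of pre-A20 arrays correlated at 0.986 and the pair of post-A20 arrays at 0.987 across genes. Between the post-A20 arrays 99 genes differed 2-fold, 82 of them higher in replicate 1, and between the pre-A20 arrays 49 did. Hepatocyte markers were abundant, with mean intensities of 2739 to 20058 over 13 tested members and 0 of them called. The mouse gene Tnfaip3 was read by probe sets made for the mouse sequence, and whether they also catch the human transgene was not tested. Its intensity was 170.0 and 162 before and 472 and 202 after resection, with the post-A20 arrays apart from each other and a change of 0.84 ± 0.39 (adjusted p = 0.352).

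In A20 livers 180 of the 17790 genes tested (1.01%) were called, 112 higher (0.63%) and 68 lower (0.382%) after resection. Every count of called genes within a list is to be read against these shares. All 180 had post-A20 arrays that did not overlap the pre-A20 arrays, a pattern that 5237 genes (29.4%) showed upwards and 3966 (22.3%) downwards, so such counts within a gene list are to be read against these shares. Among called genes the median change was 1.34 for the higher and −1.23 for the lower ones, against a median of 0.02 over all genes tested. Of all 17790 genes, 9685 had positive and 8105 negative values, the background for counts of signs within a list. Changes of at least 2 on the log2 scale were reached by 22 called genes upwards and 11 downwards, and changes of at least 3 by 6 and 2. At an unadjusted p under 0.05 there were 2743 genes, 1579 of them higher after resection. Without pre-A20 replicate 1 or 2 there were 31 and 10 called genes, without post-A20 replicate 1 or 2 there were 42 and 6, without either pre-βgal array 472 and 473 and without either post-βgal array 99 and 98. Of 67 called genes named by rule, 0 changed direction in any of 23 alternative settings, while 3 of them, Lcn2, Cidec and Bmper, were called in all 23. Without pre-A20 replicate 1 or 2, 21 and 9 of the 67 passed, and without post-A20 replicate 1 or 2, 19 and 5. Of the called genes, 86 had a further kept probe set, and 115 of these 149 probe sets moved in the same direction as the gene's own, 25 of them called and 0 called the other way.

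**Figure D1:**
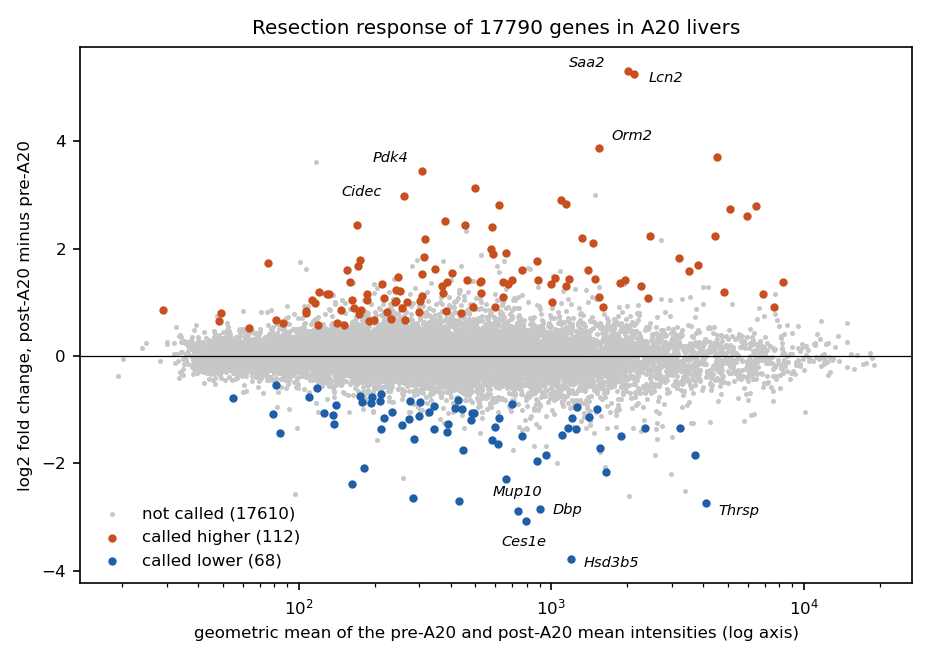
Change with resection in A20 livers (vertical axis, log2 fold change) against signal level (horizontal axis, geometric mean of the pre-A20 and post-A20 intensities, log scale), 1 point per gene. The 112 genes called higher are orange, the 68 called lower are blue, and called genes lie over most of the range of levels.

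**Figure D2:**
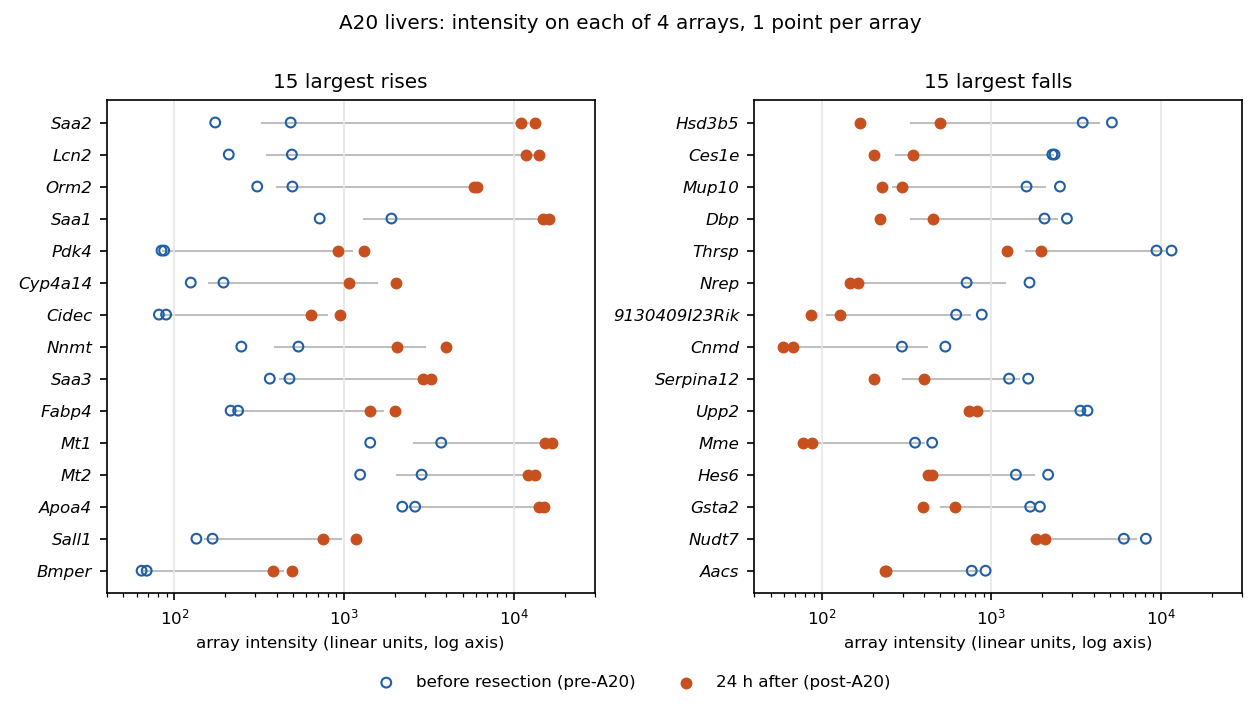
Array intensities (horizontal axes, log scale) of called genes with the 15 largest positive and the 15 largest negative changes, each point 1 array, with grey lines joining the group means. In each of these genes both post-A20 arrays lie on the same side of both pre-A20 arrays.

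The serum amyloid A, orosomucoid and lipocalin genes, secreted proteins of the acute phase, had the highest median of the 51 gene lists. Of 8 tested members 6 rose and 0 fell, against 0.63% and 0.382% of all genes, with a list median of 3.27. Saa2, an apolipoprotein of high-density lipoprotein in inflammation, had an intensity of 174 and 485 before and 11042 and 13319 after resection, a log2 fold change of 5.30 ± 0.39 (adjusted p = 0.00398). Lcn2, lipocalin 2, which withholds iron from bacteria, went from 209 and 493 to 11809.6 and 14157, a log2 fold change of 5.26 ± 0.34 (adjusted p = 0.00234). For both, the 2 pre-A20 arrays differed by more than 2-fold and still lay far below either post-A20 array. Orm2, an orosomucoid that binds drugs in plasma, was at 308 and 496 before and 5829.6 and 6038 after, a change of 3.87 ± 0.33 (adjusted p = 0.00469). Saa1 was at 719 and 1903 before and 14813 and 16228 after, a change of 3.71 ± 0.38 (adjusted p = 0.0092). Its sequence is near that of Saa2, and probe sets can read both, so the values of this pair are not independent. Saa3, the member that macrophages and fat cells also make, was at 365 and 477 and then 3268 and 2902, a change of 2.84 ± 0.37 (adjusted p = 0.02). Orm3 rose by 1.78 ± 0.14 (adjusted p = 0.00445). The constitutive member Saa4 had a value of −0.45 (adjusted p = 0.432) and Orm1, expressed at 4426 and 5869 before resection and 10267 and 12556 after it, one of 1.15 ± 0.21 (adjusted p = 0.0593). Without pre-A20 replicate 2, the higher of the pre-A20 arrays in these genes, the change of Saa2 was 6.0, and without replicate 1 it was 4.60.

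Acute phase genes share binding sequences for STAT3, C/EBP and NF-κB near their starts, so the promoters of the 6 called members of this list are shown here. They are 150 bases before the gene start, 5′ to 3′ on the gene's strand, from RefSeq on GRCm38.p6, for Saa1 at chr7:46742981-46743130 (minus strand), Saa2 at chr7:46751683-46751832 (plus strand), Saa3 at chr7:46715677-46715826 (minus strand), Orm2 at chr4:63362299-63362448 (plus strand), Orm3 at chr4:63356008-63356157 (plus strand) and Lcn2 at chr2:32387740-32387889 (minus strand). Capitals mark matches on either strand to TTNCNNNAA, a STAT motif, or TTNCNNAA, a C/EBP motif, and overlapping matches run together.
Saa1: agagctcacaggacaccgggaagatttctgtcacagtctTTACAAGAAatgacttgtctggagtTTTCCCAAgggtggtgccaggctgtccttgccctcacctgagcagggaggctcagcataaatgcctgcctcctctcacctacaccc
Saa2: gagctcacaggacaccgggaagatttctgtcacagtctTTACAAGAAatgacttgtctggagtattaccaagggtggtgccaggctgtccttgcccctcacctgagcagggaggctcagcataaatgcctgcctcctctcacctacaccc
Saa3: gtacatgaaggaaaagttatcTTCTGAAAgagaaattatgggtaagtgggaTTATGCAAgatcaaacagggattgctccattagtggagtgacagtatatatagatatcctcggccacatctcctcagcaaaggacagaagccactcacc
Orm2: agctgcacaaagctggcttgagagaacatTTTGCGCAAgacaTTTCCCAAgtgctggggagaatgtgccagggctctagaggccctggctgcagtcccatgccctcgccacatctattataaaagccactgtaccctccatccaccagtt
Orm3: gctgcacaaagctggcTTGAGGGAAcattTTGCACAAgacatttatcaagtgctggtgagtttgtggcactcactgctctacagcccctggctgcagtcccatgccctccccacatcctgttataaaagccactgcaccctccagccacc
Lcn2: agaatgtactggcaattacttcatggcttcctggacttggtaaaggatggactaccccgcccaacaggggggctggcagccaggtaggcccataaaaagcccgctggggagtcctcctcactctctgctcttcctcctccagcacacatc
The STAT motif lies within these 150 bases in Saa1, Saa2, Orm2 and Orm3, and the C/EBP motif in Saa1, Saa3, Orm2 and Orm3. Lcn2 holds neither there, and no match to the NF-κB motif (GGG, 2 bases of any kind, then TTNCC) was found in any of the 6. In the longer window of 250 bases, used for the shares below, Lcn2 and Saa2 held 1 C/EBP match each. In that window Saa3 held 2 STAT matches and Lcn2 still held 0. The sequences of Saa1 and Saa2 are nearly the same.

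Over all genes, such motifs were common. In the 250 bases before the start, the STAT motif was held by 31.7% of 104 promoters of genes called higher, 43.6% of 78 promoters of genes called lower and 27.9% of 17760 promoters of all genes tested. For the C/EBP motif these shares were 37.5%, 39.7% and 30.9%, and for the NF-κB motif 5.77%, 2.56% and 4.66%. The AP1 motif TGACTCA was held by 4.81%, 5.13% and 3.92%, the E box CACGTG by 8.65%, 3.85% and 7.41%, and the D box TTATNNAA, the site of Dbp and its relatives, by 11.5%, 14.1% and 7.11%. The direct repeat of PPAR and HNF4 receptors (AGGTCA or AGGNCA, any base, then AGGTCA) was held by 0 promoters of either called group and by 0.0957% of those of all genes tested. Promoters were found for 85 of the genes called higher, 61 of those called lower and 14135 of all genes tested, and a gene with several starts gave several promoters. A match is a string of letters in this window and says nothing about binding.

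Other plasma proteins of the acute phase rose less. Of 22 tested members 5 rose and 0 fell, against 0.63% and 0.382% of all genes, with a median of 0.34. In 16 both post-A20 arrays lay above both pre-A20 arrays, against 29.4% of all genes. Lrg1, a leucine-rich glycoprotein, was at 5279 and 4894 before and 12729 and 13933 after resection, a change of 1.39 ± 0.14 (adjusted p = 0.0093). Lbp, which hands lipopolysaccharide to its receptor, rose by 1.31 ± 0.16 (adjusted p = 0.0171), from 1554 and 1318 to 3419 and 3732, through the brighter of 2 probe sets, the dimmer one having 0.38. Itih3, an inter-α-trypsin inhibitor chain that binds hyaluronan, rose by 0.92 ± 0.12 (adjusted p = 0.0203) and Serpina3n, a protease inhibitor, by 1.16 ± 0.18 (adjusted p = 0.0349). Cd14, the lipopolysaccharide receptor of macrophages that hepatocytes also make in the acute phase, rose from 152 and 169 to 574 and 663, 1.85 ± 0.32 (adjusted p = 0.0499). Haptoglobin and the fibrinogen chains had values of 0.62 for Hp and 0.23, 0.38 and 0.24 for Fga, Fgb and Fgg, none of them called. Of 12 plasma proteins that fall in the acute phase, Igfals, the partner of circulating IGF1, fell from 1882 and 1726 to 873 and 729.9, −1.16 ± 0.19 (adjusted p = 0.0387). In the same list Apoa4, an apolipoprotein that fat in the liver induces, rose from 2204 and 2624 to 14160.5 and 15142, 2.60 ± 0.25 (adjusted p = 0.00676), and its second probe set gave 2.63. Albumin (Alb) had a value of −0.03. Cd14, Hp, Fga, Fgb, Fgg and Alb were picked for their known roles after their values were seen, as were Orm1 and Saa4 above.

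Signalling genes upstream of the acute phase had smaller values, and none of the list was called. Of 18 genes of gp130 receptors and STAT3 signalling, Stat3 itself was at 1172 and 912 before and 2266 and 2106 after resection, with a value of 1.07 ± 0.20 (adjusted p = 0.0634). Lifr, a receptor that pairs with gp130, was at 2424 and 3372 and then 1033 and 651, with −1.78 ± 0.33 (adjusted p = 0.055), so in both genes the arrays of the 2 groups did not overlap and the test was missed. The receptor Osmr had 0.80 ± 0.20 (adjusted p = 0.111) and the kinase Jak2 0.90 ± 0.20 (adjusted p = 0.0853). Of 24 NF-κB subunits, inhibitors and feedback genes 0 were called in either direction, with a median of 0.25, and of 20 inflammatory chemokines 0 were called, with a median of 0.29. Without post-A20 replicate 1 these medians were 0.092 and 0.061. Tnip2, a partner of A20, had 0.46 ± 0.10 (adjusted p = 0.089), and the chemokines Ccl5, Ccl6 and Cxcl1 had 0.63 ± 0.14 (adjusted p = 0.0863), 0.97 ± 0.22 (adjusted p = 0.0909) and 1.29 ± 0.34 (adjusted p = 0.129).

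Genes of the interferon response were set apart by 1 array. All 20 tested targets of interferon γ were higher in post-A20 replicate 1 than in replicate 2, by a median of 1.65 on the log2 scale. So were 15 of 16 genes of MHC and antigen processing, by a median of 0.87, and all 22 type I interferon genes, by a median of 0.85. Over all 17790 genes tested, 9577 were higher in replicate 1, with a median difference of 0.017. Ubd, a ubiquitin-like protein induced by interferon γ, was at 209 and 212 on the pre-A20 arrays and at 1242 and 276 on the post-A20 arrays, a value of 1.42 ± 0.59 (adjusted p = 0.308). Cxcl9, a chemokine for T cells, was at 489.7 and 587 before and at 3596 and 737 after resection, 1.58 ± 0.61 (adjusted p = 0.272). In both genes replicate 1 lay well above the other 3 arrays, which lay near each other. The lists had 0 genes called and medians of 0.49, 0.41 and 0.15. Without post-A20 replicate 1 the same medians were −0.25, −0.05 and −0.16, so their sign depended on that array. In βgal livers the medians were −0.87, −0.25 and −0.53. The difference of the responses had 8 of 20, 3 of 16 and 7 of 22 genes at an unadjusted p under 0.05, a level that 15.7% of all genes reached, and 0 called. Cxcl9 was at 3143 and 3162 on the pre-βgal and 1408 and 2102 on the post-βgal arrays, and Ubd at 1049 and 605 and then 414 and 537, so for Cxcl9 the pre-A20 arrays lay below every βgal array. Of the 20 targets of interferon γ, 12 were lower in post-A20 replicate 2 than in either pre-A20 array. The share of all genes with that order was not counted, so the 12 are a description. Post-A20 replicate 1 was also the A20 array with the highest 3′ to 5′ ratio of pyruvate carboxylase, at 6.23, and its part in these values was not tested.

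Immediate early genes, the transcription factors and feedback genes that growth signals switch on first, included 4 of 25 called higher and 1 called lower, with a median of 0.49. Over all genes 0.63% were called higher and 0.382% lower. Btg2, which restrains proliferation and is a target of p53, rose from 303 and 293 to 1134 and 1184, 1.90 ± 0.17 (adjusted p = 0.00469), and its second probe set gave 1.93. Atf3, a stress-induced repressor, rose from 173 and 178 to 499 and 574, 1.53 ± 0.21 (adjusted p = 0.0237). Fos, the partner of Jun in AP1, rose from 152 and 168 to 452 and 336, 1.21 ± 0.17 (adjusted p = 0.0259), and Klf4, a zinc finger factor, by 1.01 ± 0.14 (adjusted p = 0.0255). Dusp1, a phosphatase that ends MAP kinase signals, fell from 2294 and 2009.6 to 1086 and 1072, −0.98 ± 0.17 (adjusted p = 0.0443), and was named after its value was seen. Inhibitors of the cell cycle had values of both signs. Cdkn1a, the p21 inhibitor of cyclin-dependent kinases, was at 1008 and 775 before and 2313 and 1882 after resection, with no overlap and 1.22 ± 0.22 (adjusted p = 0.055), just outside the threshold. Cdkn2d, p19INK4d, was at 1489.6 and 1106 and then 436 and 559, with −1.35 ± 0.34 (adjusted p = 0.116).

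Some genes of cell division rose by 24 h after resection. Of 42 tested genes of G2 phase and mitosis 8 rose and 0 fell (19% against the 0.63% of all genes), 34 had post-A20 arrays above both pre-A20 arrays, against 29.4% of all genes, and the median was 0.56. Top2a, the topoisomerase that untangles chromosomes, rose from 425 and 419 to 1079.9 and 1237, 1.42 ± 0.18 (adjusted p = 0.0171). Its dimmer probe sets gave 0.19 and 0.33. Melk, a mitotic kinase, rose from 72.2 and 77.1 to 156 and 187, 1.04 ± 0.14 (adjusted p = 0.0203), and Ect2, which starts the cleavage furrow, from 194 and 216 to 396 and 536, 1.11 ± 0.16 (adjusted p = 0.0274). Ncapg, a condensin subunit, had 1.16 ± 0.19 (adjusted p = 0.0387) through its brighter probe set and 0.08 through the other. The other 4 called members were Anln, Kif11, Ube2c and Smc2. Smc2 had 1.17, while its other probe sets gave −0.32 to 0.32, and Anln had 0.86 and −0.06 through its second one. For Kif11 the other probe sets gave 0.63 and 0.49 against 0.89. With the mean of all probe sets of a gene the median of the mitosis list was 0.41. Of 41 DNA replication genes 27 had non-overlapping higher arrays, against 29.4% of all genes, and 1, the helicase subunit Mcm6, was called higher, from 863 and 936 to 2059 and 2909, 1.43 ± 0.20 (adjusted p = 0.0255). Mcm10, a replication initiation factor, was called lower, from 2531 and 3162 to 849.5 and 852, −1.71 ± 0.24 (adjusted p = 0.0272), while its other probe sets, both dimmer, gave −0.34 and −0.09. E2f8, a repressor among the E2F factors, rose by 0.92 ± 0.14 (adjusted p = 0.0349), and Ccnd1, cyclin D1 of the entry into the cycle, was at 299.8 and 341 before and 635 and 2000.3 after resection, the post-A20 arrays lying 3-fold apart, with 1.77 ± 0.46 (adjusted p = 0.125). The medians were 0.34 for replication (0.22 without post-A20 replicate 2) and 0.21 for 22 genes of G1 phase.

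**Figure D3:**
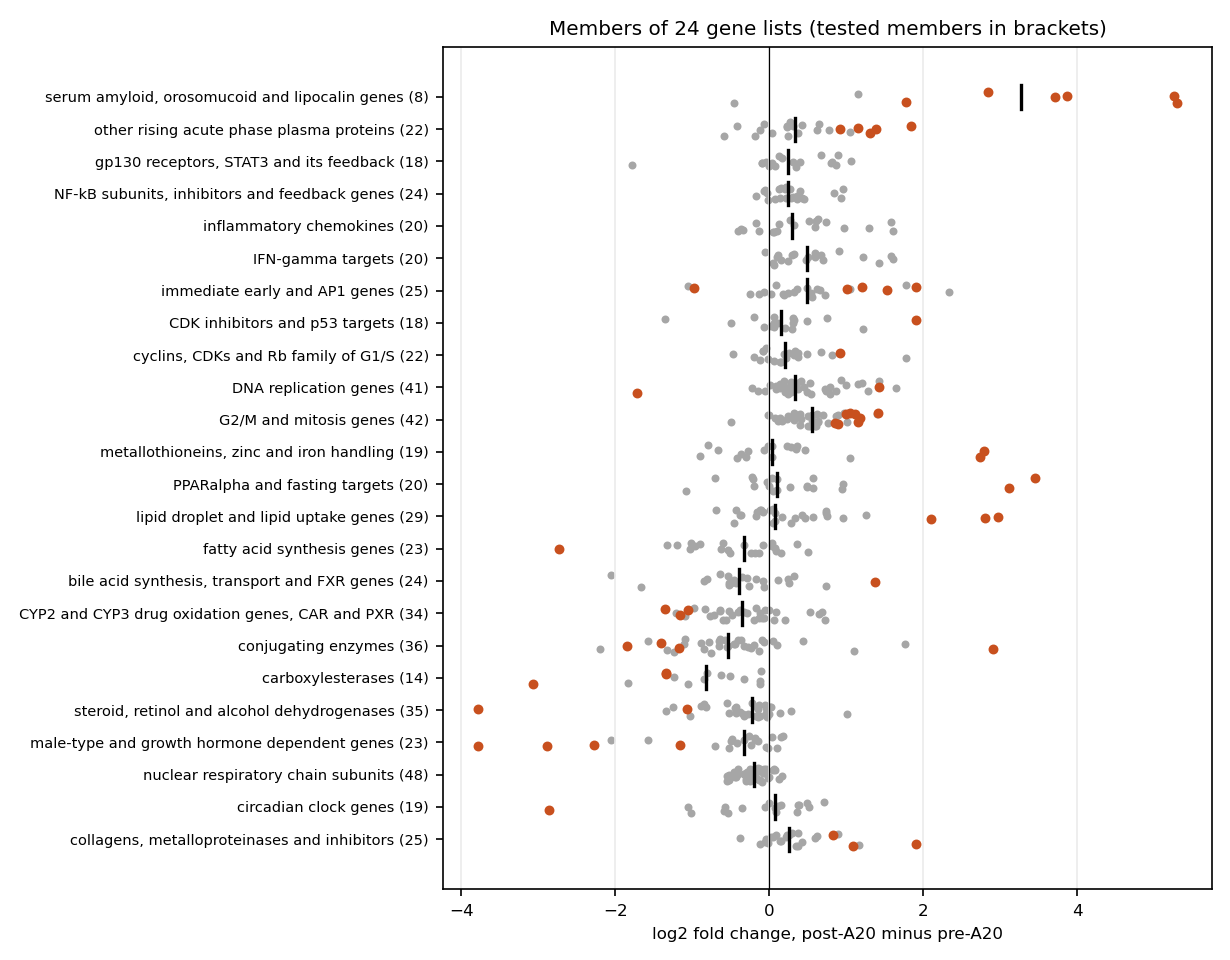
Log2 fold changes with resection in A20 livers (horizontal axis) of the tested members of 24 gene lists, 1 point per gene, orange where called and grey otherwise, with a black bar at each list's median. The acute phase list at the top has its median at 3.27, the carboxylesterases theirs at −0.82, and most lists lie near 0.

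Few genes of growth signalling were called. Of 21 growth factors and receptors of liver growth 0 were called, with a median of 0.09 (0.012 without pre-A20 replicate 2), and Kdr, the VEGF receptor of endothelium, had −0.78 ± 0.20 (adjusted p = 0.125). Igfbp1, an IGF binding protein that the liver makes in fasting and regeneration, was at 278 and 817 before and 3049 and 5066 after resection, with 3.0 ± 0.66 (adjusted p = 0.0868), the pre-A20 arrays lying apart from each other and below both post-A20 arrays. Of 29 genes of TGF-β, activin and BMP signalling 1 was called, Bmper, and the median of 0.03 changed sign with other settings. Fst, follistatin, which binds activin, had 0.52 ± 0.12 (adjusted p = 0.0971). Of 26 genes of amino acid synthesis, tRNA charging and ATF4 targets 0 were called, 13 had higher arrays without overlap, against 29.4% of all genes, and the median was 0.19. Asns, asparagine synthetase, had 0.76 ± 0.17 (adjusted p = 0.089), and the amino acid carrier Slc7a5 0.62 ± 0.13 (adjusted p = 0.0786). Of 42 genes of ribosome biogenesis 0 were called, with a median of 0.08 that was −0.017 without pre-A20 replicate 1 and 0.19 without replicate 2.

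Metallothioneins, which bind zinc and copper and are induced by metals and glucocorticoids, rose. Mt1 was at 3739 and 1427 before and 15317 and 16864 after resection, 2.79 ± 0.43 (adjusted p = 0.0334), and Mt2 at 2865 and 1245 and then 12129 and 13399, 2.74 ± 0.35 (adjusted p = 0.02). In both, pre-A20 replicate 1 was more than 2-fold above replicate 2. They were the only 2 called of 19 genes of zinc and iron handling, against 0.63% of all genes called higher. The list's median was 0.04 and changed sign with other scalings. Hamp2, a relative of the iron hormone hepcidin, had −0.90 ± 0.16 (adjusted p = 0.0524). Nnmt, which methylates nicotinamide, rose from 248 and 538 to 2044 and 3994, 2.91 ± 0.42 (adjusted p = 0.0274). Of 19 heat shock proteins 0 were called, nor were any of 21 genes of the BCL2 family and caspases or of 26 endoplasmic reticulum chaperones and secretion genes.

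Among genes of lipid handling, several of fat storage and fasting rose and a driver of fat synthesis fell. Cidec, which enlarges lipid droplets, was at 89.4 and 81.1 before and 639.9 and 949.8 after resection, a log2 fold change of 2.98 ± 0.19 (adjusted p = 0.00234). Fabp4, the fatty acid carrier of adipocytes and macrophages, was at 215 and 238 and then 1413 and 1991, 2.81 ± 0.25 (adjusted p = 0.00534), and another probe set gave 2.60, while the remaining 2 probe sets of that gene gave −0.14 and −0.17. Mfsd2a, a carrier of lysophospholipids, rose from 870.2 and 532 to 2400.2 and 3717, 2.11 ± 0.36 (adjusted p = 0.0457). These 3 were the called members among 29 genes of lipid droplets and lipid uptake, against 0.63% of all genes called higher. The median of the 29 was 0.08, 0.032 without post-A20 replicate 1 and 0.19 without pre-A20 replicate 1. The perilipin Plin4 had 1.26 ± 0.24 (adjusted p = 0.0632). Of 20 targets of PPARα and fasting, 2 rose, against 0.63% of all genes. Pdk4, a kinase that shuts off pyruvate oxidation, went from 87.1 and 84.0 to 919 and 1304, 3.45 ± 0.29 (adjusted p = 0.0046), and Cyp4a14, an ω-hydroxylase of fatty acids, from 195 and 125 to 1074 and 2038, 3.12 ± 0.35 (adjusted p = 0.0144). The list's median was 0.10 (0.18 without post-A20 replicate 1). Thrsp, which promotes fatty acid synthesis, fell from 9399 and 11530.0 to 1229 and 1953, −2.74 ± 0.24 (adjusted p = 0.00469). It was the only called member among 23 genes of fatty acid synthesis, of which 14 had post-A20 arrays below both pre-A20 arrays, against 22.3% of all genes, with a median of −0.32. Fasn, fatty acid synthase, had −0.96 ± 0.24 (adjusted p = 0.113). Insig2, which holds back cholesterol synthesis, rose from 1911 and 2099.7 to 5154 and 7073, 1.58 ± 0.23 (adjusted p = 0.0279). Aacs, which activates ketone bodies for lipid synthesis, fell from 766 and 924 to 239 and 238, −1.75 ± 0.21 (adjusted p = 0.0171). Dimmer probe sets of Aacs gave −1.58 and −0.08. Nudt7, which splits coenzyme A in peroxisomes, fell from 6037 and 8139 to 2066 and 1836, −1.84 ± 0.21 (adjusted p = 0.0144), and its other 3 probe sets gave −2.47, −2.28 and −0.76. Of 32 enzymes of fatty acid oxidation 0 were called, with a median of 0.02 that was −0.023 with median centring and 0.097 without pre-A20 replicate 1.

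Among bile acid genes, 1 of 24 was called, Acnat2, an acyl-CoA acyltransferase of peroxisomes, which rose from 249.9 and 397 to 832 and 852, 1.37 ± 0.22 (adjusted p = 0.0398). The list's median was −0.39, with 14 members lower and 6 higher without overlap, against 22.3% and 29.4% of all genes. Cyp7a1, the rate-limiting enzyme of bile acid synthesis, was at 1356 and 1737 before and 469 and 474 after resection, with −1.67 ± 0.29 (adjusted p = 0.0502). The uptake carrier Slco1a1 was at 3116 and 3499 and then 1007 and 605, with −2.06 ± 0.38 (adjusted p = 0.055). The arrays of these 2 genes did not overlap, and both lay just outside the threshold.

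Several enzymes that handle drugs, steroids and esters fell, and the carboxylesterases had the lowest median of the 51 gene lists. All 14 tested carboxylesterases and related hydrolases had negative values, with a median of −0.82. Of these 3 fell, 0 rose (21.4% against the 0.382% of all genes called lower), and 11 had post-A20 arrays below both pre-A20 arrays, against 22.3% of all genes. Ces1e was at 2358 and 2287 before and 344 and 202 after resection, a log2 fold change of −3.06 ± 0.42 (adjusted p = 0.0222). Ces2a fell from 4973 and 5366 to 2157 and 1893, −1.35 ± 0.18 (adjusted p = 0.0203), and Ces1g from 1773 and 1943 to 731 and 717, −1.34 ± 0.16 (adjusted p = 0.0171). Carboxylesterases of 1 cluster are close in sequence, and their probe sets may share signal. Of 36 conjugating enzymes 3 fell and 1 rose, against 0.382% and 0.63% of all genes. Lower arrays without overlap were found in 27, against 22.3% of all genes, and the median was −0.54. Gsta2, a glutathione transferase, fell from 1694 and 1933 to 613 and 394, −1.84 ± 0.27 (adjusted p = 0.0274), Sult5a1, a sulfotransferase, from 642 and 639.5 to 228 and 235, −1.41 ± 0.15 (adjusted p = 0.0102), and the sulfotransferase Sult1c2 with −1.18 ± 0.19 (adjusted p = 0.0399). The member that rose was Nnmt. A list of mainly CYP2 and CYP3 genes also held the receptors CAR and PXR and some other CYP genes. Of its 34 tested members 3 fell, against 0.382% of all genes, and the median was −0.35. They were Cyp2c37 with −1.35 ± 0.17 (adjusted p = 0.0182), Cyp2c23 with −1.16 ± 0.19 (adjusted p = 0.0387) and Cyp2u1 with −1.05 ± 0.12 (adjusted p = 0.0155).

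Genes that growth hormone keeps high in male livers included the largest fall of all. Hsd3b5, a steroid dehydrogenase of the male liver, was at 3455 and 5134 before and 501 and 168 after resection, a log2 fold change of −3.78 ± 0.44 (adjusted p = 0.015), with the post-A20 arrays 3-fold apart. Mup10, one of the near-identical major urinary proteins, fell from 1611 and 2536 to 299 and 227, −2.88 ± 0.32 (adjusted p = 0.0144), and Serpina12, vaspin, from 1272 and 1648 to 399 and 202, −2.28 ± 0.35 (adjusted p = 0.0317), its dimmer probe set giving −0.38. With Igfals, these were 4 called lower of 23 tested genes, against 0.382% of all genes. Of the 23, 0 were called higher, and the median was −0.33 (−0.17 without post-A20 replicate 2). The growth hormone receptor Ghr was at 5799 and 6174 before and 3853 and 3481 after resection, with −0.71 ± 0.16 (adjusted p = 0.0966). Hsd3b2, a related dehydrogenase whose probe sets may read Hsd3b5 too, fell, with −1.06 ± 0.18 (adjusted p = 0.0479). Other large falls were spread over unrelated genes. Upp2, a uridine phosphorylase, fell from 3347 and 3686 to 819.5 and 736, −2.15 ± 0.17 (adjusted p = 0.00411). Cnmd, chondromodulin, fell from 297 and 535 to 68.1 and 59.1, −2.39 ± 0.23 (adjusted p = 0.00676), and Mme, neprilysin, which degrades peptides, from 355 and 448 to 87.2 and 77.6, −2.08 ± 0.23 (adjusted p = 0.0144), with −0.98 at its second probe set. The remaining large falls were Nrep with −2.70 ± 0.33 (adjusted p = 0.0171), the transcriptional regulator Hes6 with −1.96 ± 0.29 (adjusted p = 0.0279) and 9130409I23Rik with −2.64 ± 0.26 (adjusted p = 0.0075).

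Central metabolism showed few calls. Car5a, the mitochondrial carbonic anhydrase that supplies bicarbonate to the urea cycle, fell from 1409.9 and 1192 to 434 and 474, −1.48 ± 0.18 (adjusted p = 0.0171), the only called gene of 17 of urea and glutamine metabolism. Pkm, pyruvate kinase of growing tissues, rose from 345 and 344 to 818 and 784, 1.18 ± 0.16 (adjusted p = 0.0216), and Ppp1r3g, which directs a phosphatase to glycogen, fell from 119 and 129.5 to 46.0 and 54.6, −1.08 ± 0.12 (adjusted p = 0.0144). Of 48 nuclear subunits of the respiratory chain 0 were called, 27 had post-A20 arrays below both pre-A20 arrays and 0 above, against 22.3% and 29.4% of all genes, and 43 had negative values. Their median was −0.20, and it was −0.32 without pre-A20 replicate 1 and −0.12 without replicate 2. Ndufb5 and Ndufb9 of complex I had −0.52 ± 0.15 (adjusted p = 0.152) and −0.46 ± 0.14 (adjusted p = 0.17). Of 27 mitochondrial carriers, 20 citric acid cycle genes and 42 enzymes of amino acid breakdown 0 were called, with medians of −0.0037, −0.11 and −0.21. The first was 0.046 without pre-A20 replicate 1, and the second −0.057 without post-A20 replicate 1. The aminotransferase Got1 was at 1435 and 1109.7 before and 4718 and 6882 after resection, with 2.16 ± 0.51 (adjusted p = 0.0983), and Otc, ornithine carbamoyltransferase of the urea cycle, at 5157 and 5855 and then 2717 and 1950.4, with −1.25 ± 0.29 (adjusted p = 0.0955). Of 33 coagulation and complement genes of the hepatocyte 0 were called, 18 had lower arrays without overlap and 4 higher ones, against 22.3% and 29.4% of all genes, and the median was −0.24 (−0.13 without post-A20 replicate 2). Several genes were named because the study also measured them by PCR. Ppara, the fatty acid receptor, had −0.21 ± 0.32 (adjusted p = 0.806), Cpt1a, which brings fatty acids into mitochondria, 0.49 ± 0.51 (adjusted p = 0.706), the carriers Slc25a10 and Slc25a13 0.08 ± 0.22 (adjusted p = 0.899) and 0.19 ± 0.53 (adjusted p = 0.903), and the leptin receptor Lepr −0.09 ± 0.12 (adjusted p = 0.783). For Cpt1a the arrays read 3947 and 2479 before and 3675 and 5282 after resection, so the groups overlapped. With Ubd and Cdkn1a, these PCR genes number 7, of which 0 were called.

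The clock output gene Dbp, a transcription factor of the PAR bZIP family, had 1 of the largest falls. It was at 2788 and 2056 before and 222 and 452 after resection, −2.85 ± 0.39 (adjusted p = 0.0237), and its second probe set gave −2.41. The other 18 tested clock genes were not called. Its relative Tef was at 1670.2 and 1654 and then 1032 and 1188, with −0.58 ± 0.16 (adjusted p = 0.152), and Arntl, the activator of the clock, at 160.4 and 146 and then 298 and 228, with 0.71 ± 0.16 (adjusted p = 0.0947). Of the genes tested, 24 code for transcription factors of the hepatocyte, and Dbp was the only one of them called. Cebpa, which keeps hepatocytes differentiated, was at 5543 and 3234 before and 1795 and 1636 after resection, with −1.30 ± 0.27 (adjusted p = 0.071). The hours of the day at which livers were taken are not given in the sources used here.

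Several genes of cell shape, matrix and growth receptors rose. Tnfrsf12a, the receptor of the cytokine TWEAK, went from 576 and 652 to 2704 and 3036, 2.20 ± 0.18 (adjusted p = 0.00445), and its second probe set gave 2.28. Krt8, the keratin of hepatocyte filaments, rose from 2169.7 and 2056 to 7232 and 6533, 1.70 ± 0.29 (adjusted p = 0.0476), and Cd24a, a surface protein of progenitor cells, from 89.4 and 90.2 to 264 and 387, 1.67 ± 0.19 (adjusted p = 0.0144). These were the 3 called of 18 progenitor, fetal and biliary genes, against 0.63% of all genes called higher, and the list had a median of 0.21. Afp, the fetal plasma protein α-fetoprotein, was at 14.2 and 20.9 before and 97.4 and 1464 after resection, the post-A20 arrays lying far apart, with 3.62 ± 1.03 (adjusted p = 0.153), and was picked after its value was seen. Of 25 genes of collagens, metalloproteinases and their inhibitors 3 rose, against 0.63% of all genes. Col4a1 of the basement membrane rose from 365 and 305 to 1209 and 1394, 1.91 ± 0.28 (adjusted p = 0.0272), the protease Adamts1 by 1.08 ± 0.14 (adjusted p = 0.02) and Mmp14 by 0.83 ± 0.14 (adjusted p = 0.047). Bmper, which binds bone morphogenetic proteins, rose from 64.1 and 68.7 to 380.2 and 491, 2.44 ± 0.14 (adjusted p = 0.00234), which shared the smallest adjusted p with Lcn2 and Cidec, and Sall1, a zinc finger factor, from 168 and 135 to 748 and 1171, 2.52 ± 0.22 (adjusted p = 0.00469), while a second probe set of Sall1 gave 0.12. Some other called genes were picked after their values were seen and are given as a description. Of 13 tested genes for α- and β-tubulin 4 were called higher and 0 lower, against 0.63% and 0.382% of all genes. They were Tubb2a, from 1025 and 1239 to 5049 and 5717 (2.24), Tubb6 (1.33), Tubb5 (1.08) and Tubb2b (0.86), and the median of the 13 was 0.40. Dimmer probe sets of Tubb2a, Tubb6 and Tubb5 gave 0.78, 0.15 and 0.69. Actg1, γ-actin, rose from 3128 and 3238 to 7218 and 7405 (1.20), the intermediate filament vimentin (Vim) by 1.44 and Fgl1, a growth factor that hepatocytes secrete, from 1796 and 2313 to 8979.9 and 10342 (2.23).

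Whether this response differed from that of livers with the control vector was tested by the difference of the 2 responses. In βgal livers 400 genes (2.25%) were called, and for the difference 0 genes (0%) were called by limma, with 2788 at an unadjusted p under 0.05 and a smallest adjusted p of 0.0646. Other settings of the same tool called 0 to 125. Leaving out pre-βgal replicate 2 gave 12 called genes for the difference, and a model with the β-actin ratio gave 125. The comparisons share no array, but they share the estimate of each gene's spread. Of the 112 genes called higher in A20 livers 53 were also called higher in βgal livers (47.3% of the A20 list and 19.9% of the βgal list), and of the 68 called lower 17 were also called lower (25.0% and 12.8%). In 97 of the 112 both post-βgal arrays also lay above both pre-βgal arrays, and in 47 of the 68 below them. In 4 and 4 they lay on the opposite side. The share of all genes with non-overlapping arrays in βgal livers was not counted, so these counts have no background beside them. The median change of the same genes in βgal livers was 0.77 for those called higher and −0.59 for those called lower. The value in A20 livers was the larger one in 153 of the 180, but the genes were chosen for their change in A20 livers, which fixes part of that count.

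**Figure D4:**
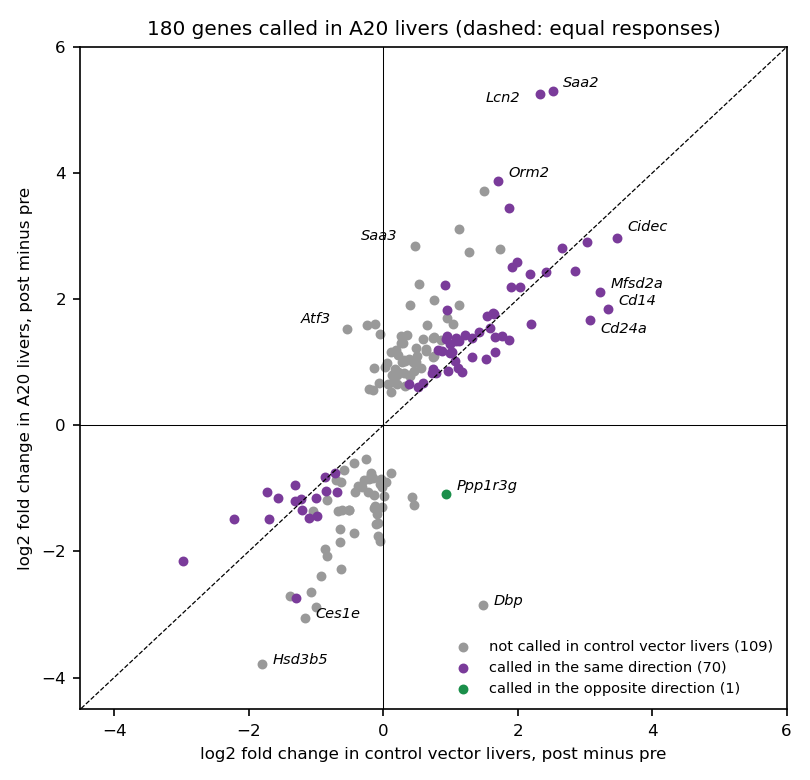
Log2 fold changes with resection of the 180 genes called in A20 livers, in βgal livers (horizontal axis) and in A20 livers (vertical axis), 1 point per gene, with a dashed line of equal responses. In purple are 70 genes also called in the same direction in βgal livers, and Ppp1r3g is the 1 gene called in the opposite direction.

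Before resection, the acute phase genes Lcn2, Saa2 and Saa3 had lower intensities on both pre-A20 arrays than on either pre-βgal array. That difference was not tested, and the genes were chosen for their change in A20 livers. Replicate 1 of pre-βgal also had the β-actin ratio of 7.0. Lcn2 was at 2622 and 2871 on the pre-βgal and 13762 and 14005 on the post-βgal arrays, a change of 2.33 against 5.26 in A20 livers, and the difference of 2.92 had an adjusted p of 0.212. Its post-A20 arrays, at 11809.6 and 14157, thus lay close to the post-βgal arrays, while its pre-A20 arrays lay far below the pre-βgal ones. Saa2 followed the same order, with 2393 and 2606 before and 15079 and 13810.2 after resection in βgal livers (change 2.52, difference 2.77, adjusted p = 0.212). Saa3 was at 7329.6 and 3534 and then 5554 and 9086 in βgal livers, so its post-A20 arrays reached less than either pre-βgal array (difference 2.36, adjusted p = 0.212). Top2a was at 824 and 628 before and 867 and 874 after resection in βgal livers, a change of 0.27, and its difference of 1.15 had an adjusted p of 0.212. Over the 42 mitosis genes the median change was −0.03 in βgal livers and 0.56 in A20 livers. Cidec rose by 3.47 in βgal livers (94.5 and 99.4 to 1318 and 1165), Fabp4 by 2.66, Nnmt by 3.04 and Bmper by 2.86, with differences from the A20 response of −0.50, 0.15, −0.13 and −0.42 and adjusted p of 0.351 to 0.936. Of the genes called higher in A20 livers, 99 of 112 had a lower mean in pre-A20 than in pre-βgal, and 62 had a lower mean in post-A20 than in post-βgal. Of those called lower, 66 of 68 had a higher mean in pre-A20 than in pre-βgal. The pre-A20 arrays entered both the choice of genes and these counts, so they are a description. With the β-actin ratio of each array in the model the difference had 125 called genes, and without both βgal replicate 1 arrays it had 0.

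**Figure D5:**
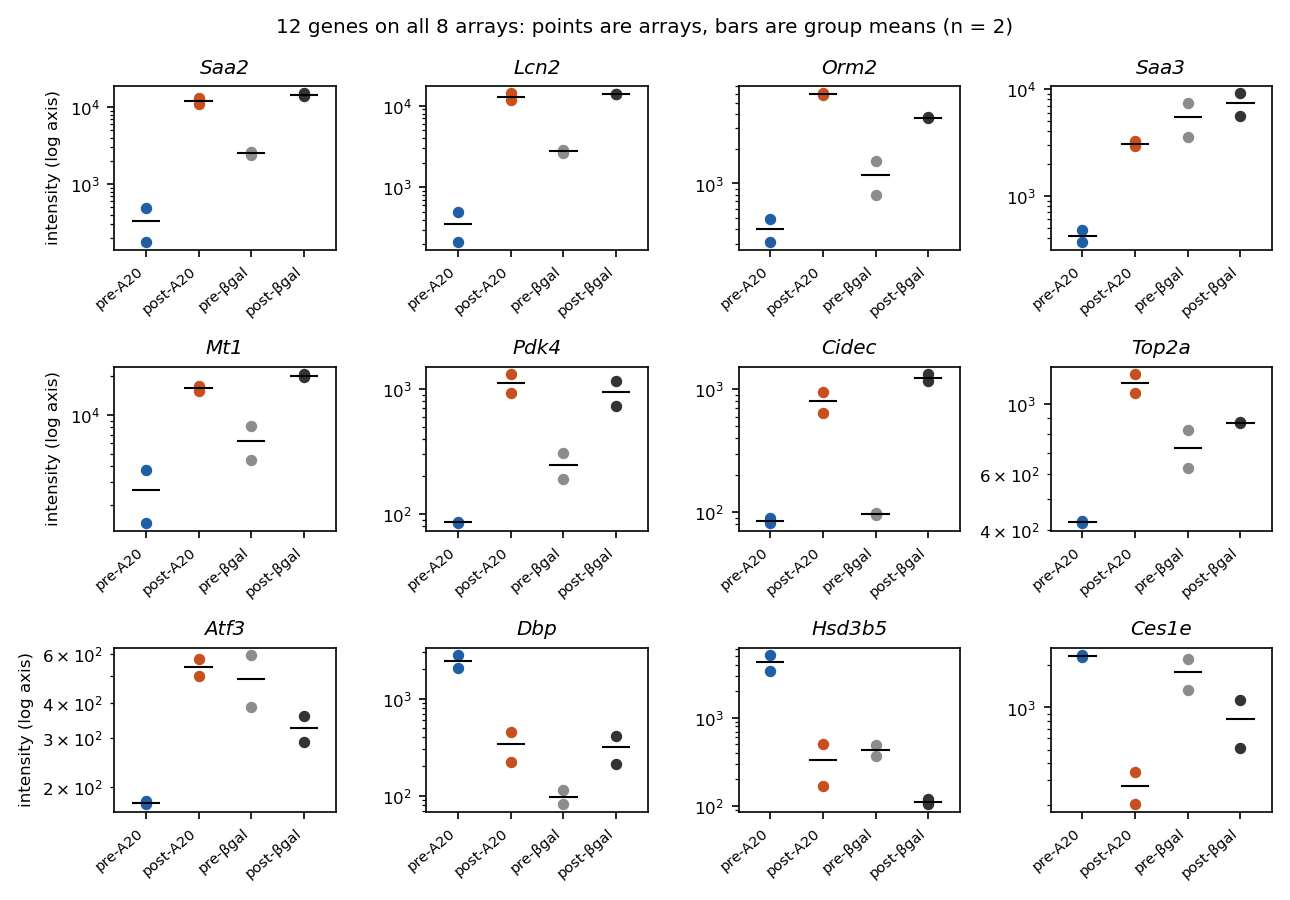
Intensities (vertical axes, log scale) of 12 genes on all 8 arrays, by group, with points for arrays and black bars for group means. Saa2, Lcn2 and Orm2 lie lowest on the pre-A20 arrays and higher on both sets of arrays after resection, while Dbp lies highest on the pre-A20 arrays.

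Of the markers of 9 cell types that liver RNA can hold, 1 gene was called. Of 15 tested Kupffer cell and macrophage markers 0 were called, 14 had positive values and the median was 0.45. The summed intensity was 8913 and 8820.3 before and 14371 and 11372 after resection, higher on both post-A20 arrays. Such a sum weighs the brightest probe sets most, and Mpeg1 alone read 1501 and 1620 before and 2857 and 1171 after. In βgal livers the macrophage sum went from 16344 and 15260 to 11099 and 13792, with a median change of −0.25. Of 13 neutrophil markers 0 were called and the sum went from 3194 and 3142 to 3860.3 and 3588. Of 15 endothelial markers 1 was called, Lyve1, here named after its value was seen, a hyaluronan receptor of sinusoids, from 128 and 125 to 272 and 442, 1.35 ± 0.20 (adjusted p = 0.0287). Of the 15, 9 had positive values and the median was 0.10. The markers Fcgr2b, Kdr and Clec4g had −0.82, −0.78 and −0.69, and Oit3 and Stab1 −0.21 and −0.16. All lay lower without overlap, against 22.3% of all genes, and none was called. Thbd, Cav1, Cdh5, Vwf, Pecam1 and Eng had 1.61, 0.50, 0.32, 0.30, 0.29 and 0.19. These lay higher without overlap, against 29.4% of all genes, and none was called. All these members were named after their values were seen, so the list moved in both directions. The endothelial sum went from 7439 and 7186 to 6179 and 7101. The 12 markers of stellate cells and fibroblasts had a median of 0.14, the 13 of T and NK cells 0.11, the 7 of B cells 0.01 and the 5 of bile duct cells 0.13, with 0 called in each. The 3 tested red cell genes summed to 4461 and 4452 before and 2131 and 2042 after resection, largely through Alas2, the heme enzyme of erythroid cells, at 3669 and 3720.3 and then 1439 and 1333, with −1.41 ± 0.34 (adjusted p = 0.105), a gene picked after its value was seen. The 13 hepatocyte markers had a median of 0.16, and their sum lay between 166519 and 186590 on the 4 A20 arrays. Macrophages also make Saa3 and Fabp4, and the part of the higher macrophage sum in those values was not tested.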

How the data were processed

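RNA of pooled livers was hybridised to Affymetrix Mouse Genome 430 2.0 arrays. The authors deposited linear intensities of 45101 probe sets for each array. The study's methods name dChip invariant-set normalization with a perfect-match model and the sample records name MAS5, and the sources used here do not say which made these values. Levels may be compared between arrays, not between probe sets.

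Intensities plus an offset of 16 were taken to log2. Probe sets with a mean of at least 40 in 1 group or more were kept (42703), and a linear model of the 4 groups was fitted over all 8 arrays with limma 3.58.1 in R 4.3.3, with a variance trend over all kept probe sets (4 residual and 3.73 prior degrees of freedom). Gene symbols came from the platform annotation. A probe set had 1 symbol (34945), several (932), none (9160) or was a control (64), and each gene was read from its brightest kept probe set with 1 symbol. Benjamini-Hochberg adjustment ran over 17790 genes, within each of 3 contrasts. The model was tested on simulated data with known changes.

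Named genes were the 15 largest rises and 15 largest falls among called genes without overlap, up to 4 members with the smallest p of each of 51 gene lists, and 7 genes the study measured by PCR. The 51 lists, 9 marker lists and all members were chosen with earlier results of these data known. Promoters came from RefSeq on GRCm38.p6, matched by symbol for 14135 genes, with 250 bases before each start searched on both strands.

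Alternatives were quantile normalization, median centring, other filters and offsets, a floor, other variance models, the mean of all probe sets of a gene, a replicate block, the 4 A20 arrays alone, the β-actin ratio as a covariate, leaving out each array, and a call by an interval and a 1.5-fold change. Moderation over genes only, leaving out both βgal replicate 1 arrays, and the counts for βgal livers were added after seeing the data.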

Additional observations from a re-analysis of the deposited data

Results flagged for a closer look

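Of the called genes named by rule, 3 moved one way on both post-A20 arrays and the opposite way on both post-βgal arrays, each against its own arm before resection. Such opposite, non-overlapping arrays were found for 4 of the 112 genes called higher and 4 of the 68 called lower. The test of the difference called 0 of them. The share of all genes with such opposite arrays was not counted. Dbp was at 2788 and 2056 before and 222 and 452 after resection in A20 livers, and at 113 and 80.9 and then 415 and 212 in βgal livers. Its responses of −2.85 and 1.49 differed by −4.34 on the log2 scale (adjusted p = 0.138 by limma). Most of that distance lay before resection, where the pre-A20 arrays were far above the pre-βgal arrays, while the groups after resection overlapped. Atf3 was at 173 and 178 and then 499 and 574 in A20 livers and at 592 and 386 and then 290.0 and 359 in βgal livers, responses that differed by 2.07 (adjusted p = 0.212). Ppp1r3g was at 119 and 129.5 and then 46.0 and 54.6 in A20 livers and at 73.0 and 57.7 and then 129 and 149 in βgal livers, responses that differed by −2.02 with the smallest adjusted p of the test, 0.0646.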

How the results depend on the processing

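The count of 180 genes called in A20 livers stayed between 161 and 263 under quantile normalization, median centring, other filters, offsets, the floor and 2 other variance models. It was 275 with the mean of all probe sets of a gene, 284 by the interval and 1.5-fold criterion (154 of them among the 180), 358 with variances moderated over genes only, 506 with the 4 A20 arrays alone, 517 without both βgal replicate 1 arrays and 1052 with the β-actin ratio as a covariate. Leaving out 1 array gave 6 to 473. The count of 0 for the difference of the responses was 1 with quantile normalization, 2 with median centring, 3 with an offset of 32, 4 with the mean of all probe sets, 5 with variances moderated over genes only and 125 with the β-actin ratio, and 0 to 12 without 1 array. The count of 400 in βgal livers was 638 with the mean of all probe sets, 710 with moderation over genes only, 8 with the 4 βgal arrays alone, 122 without both replicate 1 arrays and 2362 with the β-actin ratio, and 34 to 660 without 1 array. With the replicate number as a block there were 686, 24 and 1585 called genes in A20 livers, for the difference and in βgal livers. Deviations of same-numbered arrays from their group means correlated at −0.018 in A20 and 0.617 in βgal livers. With 2 arrays per group these values cannot decide whether same-numbered pools shared mice. In βgal livers both replicate 1 arrays also had the higher β-actin ratios. A single array left in a group was assumed to vary like the other groups.

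Of the named genes, 7 that were not called changed sign in 1 setting each. With the mean of all probe sets Atf6 had 0.12, Slc1a2 0.060 and Lepr 0.087. Without 1 array, Ppara ran from −0.49 to 0.062 (positive without pre-A20 replicate 2), Tap1 from −0.035 to 1.46 (negative without post-A20 replicate 1), Slc25a10 from −0.046 to 0.21 and Slc25a13 from −0.0048 to 0.38 (both negative without post-A20 replicate 2). The cause of these shifts was not tested. With 2 arrays of pooled RNA per group, genes near the filter and changes under about 1 on the log2 scale are the least certain.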
